A study of Macaca mulatta with 3 samples.

Results

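Trimethylation of lysine 4 on histone H3 (H3K4me3) is a chromatin mark laid down by the SET1 and MLL families of methyltransferases. It sits on the nucleosomes that flank transcription start sites, above all at CpG-island promoters of active and poised genes, and it is bound by the general transcription machinery through the TFIID complex. The study used this mark to find start sites in the rhesus macaque genome. The regions described here are the H3K4me3 peaks that lie on chromosomes 10, 16 and 20, 3 of the smaller macaque autosomes, which are counterparts of gene-rich human chromosomes. They were taken from the deposited peak list by chromosome name alone, and numbered 3972 of 24248: 1383 on chromosome 10, 1496 on chromosome 16 and 1093 on chromosome 20. They were compared with each other and with the 17976 peaks of the 16 other autosomes, chromosome 19 being left out as by far the densest.

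The ChIP library was made from frozen post-mortem prefrontal cortex (superior frontal gyrus) of 1 male macaque aged 3389 days with the Abcam antibody ab8580, and the input library from fragmented DNA of the same tissue without precipitation. There was 1 library of each kind, so no value below has a replicate check, and variation between animals was not measured. Cortex is a mixture of neurons and glia, so a lower peak can reflect fewer cells with the mark or less of it per cell. No gene was assigned to a peak, so cell-type markers were not checked. The ChIP library held 10023993 tags and the input 9162762, or 3.5004 and 3.20 tags per kb on average. The 3 chromosomes received 453988, 372934 and 348210 ChIP tags, and 400008, 305151 and 301453 input tags.

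The 3 chromosomes together carried 2.01 times the peak density of the 16 other autosomes (1.94 to 2.08). They made up 9.14% of the span of the genome but 16.4% of the peaks. Chromosome 16 had 18.99 peaks per Mb (exact Poisson interval 18.0 to 19.98), chromosome 10 had 14.6 (13.8 to 15.4) and chromosome 20 had 12.4 (11.7 to 13.1), against 7.54 (7.43 to 7.65) over the 16 others. Among those 16, densities ran from 4.22 on chromosome 5 to 11.1 on chromosome 14, so none reached the lowest of the 3. The folds over the 16 others were 2.52 (exact interval of a ratio of rates 2.39 to 2.65), 1.93 (1.83 to 2.04) and 1.64 (1.54 to 1.75). The chromosomes had been proposed as peak-rich, so these folds are a description and not a test. Intervals cover counting error only, and neighbouring peaks are not independent.

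**Figure D1:**
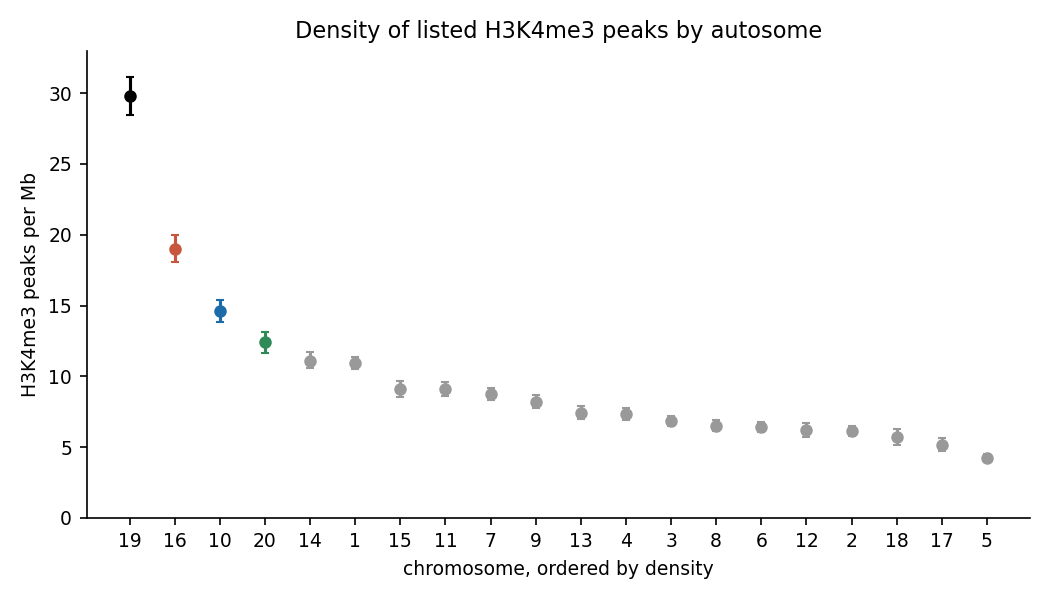
Listed H3K4me3 peaks per Mb (vertical axis) for each of the 20 autosomes, ordered by density, with exact 95% Poisson intervals. Chromosomes 16, 10 and 20 (coloured) follow chromosome 19 (black), and all 16 other autosomes (grey) lie below 12.4 peaks per Mb.

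Chromosomes of like size were not as dense. Chromosome 17 is nearest in span to chromosomes 10 and 20 (94.5 Mb against 94.9 and 88.2), yet it carried 489 peaks, or 5.18 per Mb. Chromosome 10 exceeded it 2.82-fold (2.54 to 3.13) and chromosome 20 exceeded it 2.39-fold (2.15 to 2.67). Chromosome 18, nearest in span to chromosome 16 (73.6 against 78.8 Mb), had 420 peaks and 5.71 per Mb, and chromosome 16 exceeded it 3.33-fold (2.98 to 3.72). The peaks covered 2.38% of chromosome 16, 1.78% of chromosome 10 and 1.51% of chromosome 20, against 0.953% over the 16 others.

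Within the 3, chromosome 16 stood first. Its density was 1.30 times that of chromosome 10 (1.21 to 1.40) and 1.53 times that of chromosome 20 (1.42 to 1.66). Chromosome 10 was 1.18 times as dense as chromosome 20 (1.09 to 1.28), but that order rested on 1 interval of chromosome 20. From 32681201 to 44477800, 11.8 Mb held no peak and only 101 ChIP and 65 input tags, 0.00172 of the mean input density of the genome. This stretch could therefore not be read in either library. With the longest gap of each chromosome left out, chromosome 20 had 14.3 peaks per Mb against 14.9 on chromosome 10. Counted per Mb of 1 kb windows with at least 1 input tag, both had 16.3 to 16.4 and chromosome 16 had 21.9, against 8.84 over the 16 others. The 2 sides of the empty stretch differed: 561 peaks lay on its left at 17.2 per Mb and 532 on its right at 12.2 per Mb. Their median ratios of ChIP to input were both 3.66 (3.43 to 3.81 and 3.35 to 3.76).

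Megabase windows show where the excess lay. Only windows with at least 1000 input tags were used, 94 on chromosome 10, 79 on 16 and 76 on 20. The median window held 13 peaks on chromosome 10 (interquartile range 7 to 18.8), 17 on chromosome 16 (7 to 27) and 10 on chromosome 20 (5 to 18). The median over the 2360 windows of the 16 others was 5 (2 to 10). Windows without any peak made up 2.13%, 2.53% and 3.95% on the 3 chromosomes and 8.77% on the others. Windows with 20 or more peaks made up 23.4%, 39.2% and 21.1%, against 7.92% on the others. Of all peaks of chromosome 16, 68.8% lay in such dense megabases, against 48.3% on chromosome 10, 53.6% on chromosome 20 and 29.95% on the 16 others. Single chromosomes of those 16 ran from 10% on chromosome 18 to 49.5% on chromosome 14, the only 1 above chromosome 10. Their median was 26.4%.

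**Figure D2:**
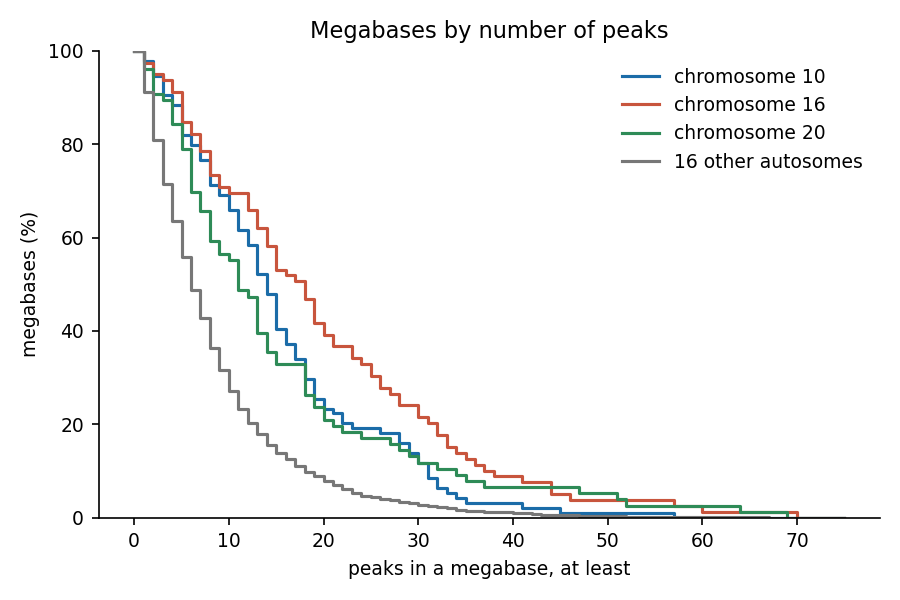
Share of megabases (vertical axis, %) that hold at least the number of peaks on the horizontal axis, for chromosomes 10, 16, 20 and the 16 other autosomes. The 3 coloured curves lie to the right of the grey one, and chromosome 16 lies furthest right between 12 and 40 peaks.

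The input library was denser on these chromosomes as well. It held 4.22 tags per kb on chromosome 10 and 3.87 on chromosome 16, the highest and second highest of the 20 autosomes, and 3.42 on chromosome 20 despite its empty stretch, against 3.24 on the 16 others. Megabases with more peaks had more input: on the 3 chromosomes the median rose from 2.78 tags per kb in the 7 windows without a peak to 4.55 in the 69 with 20 or more, and on the 16 others from 2.19 to 4.49. At like input the difference in peak number was smaller. In windows of 4 to 5 input tags per kb, the 3 chromosomes had a median of 17 peaks (14 to 19, 109 windows) and the others 13 (12 to 14, 395 windows), intervals that meet at 14. In windows of 3 to 4 input tags per kb the medians were 9 (7 to 12, 80 windows) and 7 (7 to 7, 826 windows). The excess was not seen on each of the 3: at 3 to 4 input tags per kb chromosome 10 had 7 (4 to 12) and chromosome 20 had 7.5 (5 to 12), and at 4 to 5 they had 16 (14 to 19) and 12 (7 to 17), the last below the median of the others. Chromosome 16 had 23 peaks (17 to 31, 29 windows) at 4 to 5 input tags per kb, clear of the interval of the others. Its 8 windows above 5 input tags per kb had a median of 30 (8 to 56), which the spread between windows does not separate from the 20 (17 to 23) of the others.

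Each chromosome had its own dense districts. On chromosome 16 the megabase from 7000001 to 8000000 held 69 peaks that covered 109 kb and 37.5% of its ChIP tags. Its peaks had a median ratio of 4.30 (3.47 to 4.88) and 62 of the 69 (89.9%) were enriched on recount, where 77.4% of the whole list and 75.5% of all peaks in megabases of 20 or more were. The next, from 77000001 to 78000000 near the right end, held 59 peaks with a median ratio of 3.20 (2.55 to 3.81), of which 39 (66.1%) were enriched. On chromosome 20 the first megabase held 68 peaks with a median ratio of 3.23 (2.89 to 3.66), and the third, from 2000001 to 3000000, held 63 with 3.20 (2.74 to 3.75). On chromosome 10 the first megabase led with 56 peaks and a median ratio of 2.74 (2.48 to 3.20), followed by 64000001 to 65000000 with 44 and 3.23 (2.74 to 3.81). The densest megabases of chromosomes 16 and 10 thus had intervals apart in ratio, although both held more than 50 peaks.

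The ends of the chromosomes were richer in peaks than their interiors. Within 5 Mb of an end, chromosome 20 held 371 of its peaks (33.9%) at 37.1 per Mb, against 9.23 per Mb further in, a ratio of 4.02. Its interior includes the empty stretch, and with the longest gap of each chromosome left out the interior held 10.9 per Mb and the ratio was 3.41. The left end of chromosome 20 carried most of them, 244 against 127 on the right. Chromosome 16 had 33.5 per Mb near its ends and 16.9 inside, with 126 on the left and 209 on the right. Chromosome 10 had 24.8 and 13.4, with 140 and 108. On the 16 others the values were 16.5 and 6.90, and single chromosomes had end-to-interior ratios from 1.203 to 4.26. Inside the outer 5 Mb the excess of chromosome 20 over the 16 others was 1.34-fold (1.24 to 1.44), or 1.53-fold (1.42 to 1.65) without the longest gaps. Chromosomes 1 and 14 of those 16, with 10.4 and 10.2 per Mb, were denser there than chromosome 20, but without the longest gaps the 3 values were 10.6, 10.8 and 10.9.

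Each chromosome also had long peak-free stretches that the input covered. The longest gaps of the 16 others, whatever their input, ran from 2492 kb on chromosome 11 to 6866 kb on chromosome 14. A comparison at like input was not made. Among stretches with input at 50% or more of the genome mean, the longest on chromosome 20 ran from 60513001 to 63321800 (2.81 Mb, ChIP to input ratio 0.843). On chromosome 16 it ran from 36849001 to 39161200 (2.31 Mb, 0.884), and on chromosome 10 from 47651801 to 49429200 (1.78 Mb, 0.817). The second longest were 1.05 Mb on chromosome 20 from 7484801 to 8532000, 1.2004 Mb on chromosome 16 from 65401801 to 66602200 and 1.27 Mb on chromosome 10 from 45654801 to 46923600. Input in these stretches was 0.759 to 1.18 times the genome mean, so they were covered by the sequencing.

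Neighbouring peaks lay closer together than on the 16 others pooled. The median gap was 19 kb on chromosome 16 (17.2 to 21.6), 23.9 kb on chromosome 20 (21.2 to 27.2) and 30.7 kb on chromosome 10 (27.4 to 33.4), against 48.6 kb on the 16 others (47.0 to 49.8). Of those 16, chromosome 14 had 27.2 kb (24.6 to 30.2), less than chromosome 10, and the other 15 had longer median gaps than all 3. Gaps of at most 5 kb made up 23.9% on chromosome 16 (Clopper-Pearson interval 21.7 to 26.1) and 22.2% on chromosome 20 (19.7 to 24.7), both above the 17.4% of the others (16.8 to 17.95). On chromosome 10 the share was 19.03% (17.0 to 21.2), which overlaps that of the others. Gaps under 1 kb made up 7.45%, 8.43% and 8.88% on chromosomes 10, 16 and 20, and all 3 intervals overlapped that of the others (8.18%, 7.79 to 8.595).

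Runs of 3 or more peaks, each within 5 kb of the next, numbered 82 on chromosome 16, 43 on chromosome 10 and 40 on chromosome 20, and held 294, 157 and 149 peaks. The longest was on chromosome 10 from 90053401 to 90104800, with 16 peaks in 51.4 kb. Its tallest member, at 90081601 to 90086600, had 201 ChIP and 22 input tags, a ratio of 8.35 (5.37 to 13.6). The other 15 held 9 to 108 ChIP tags, 12 of the 16 were enriched on recount, near the 77.4% of the whole list, and peaks took up 77.1% of the ChIP tags of the run. On chromosome 16 a run of 11 peaks from 6933401 to 6983200 lay beside the densest megabase, and 10 of its 11 peaks were enriched. On chromosome 20 the longest run, 9 peaks from 1945201 to 1979000, had 5 of 9 enriched, and its median ratio was only 2.67 against 4.11 in the run on chromosome 16.

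The median of ChIP tags per peak was slightly lower on these chromosomes than elsewhere, with intervals that meet or overlap. It was 22 on chromosome 10 (21 to 23), 23 on chromosome 16 (22 to 24) and 23 on chromosome 20 (21 to 24). The 16 others had 24 (23 to 24), and the median peak had 6 input tags in every group. Few peaks held many: 20, 29 and 16 reached 100 ChIP tags, which is 1.45%, 1.94% and 1.46% of each chromosome, against 2.40% of the others. These counts include peaks with input above 10 times the genome mean, 12 on the 3 chromosomes and 157 on the others. The shares without such peaks were not computed. The fullest peaks held 214, 275 and 174 ChIP tags on chromosomes 10, 16 and 20. That of chromosome 16 was such a high-input peak, with a ratio of ChIP to input of 1.75. Per kb of peak, the 3 chromosomes together had a median of 22.5 ChIP tags (22.5 to 23.0) against 23.9 (23.8 to 24.1) on the others, and 5.71 input tags (5.56 to 5.83) against 5 (5 to 5.42).

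**Figure D3:**
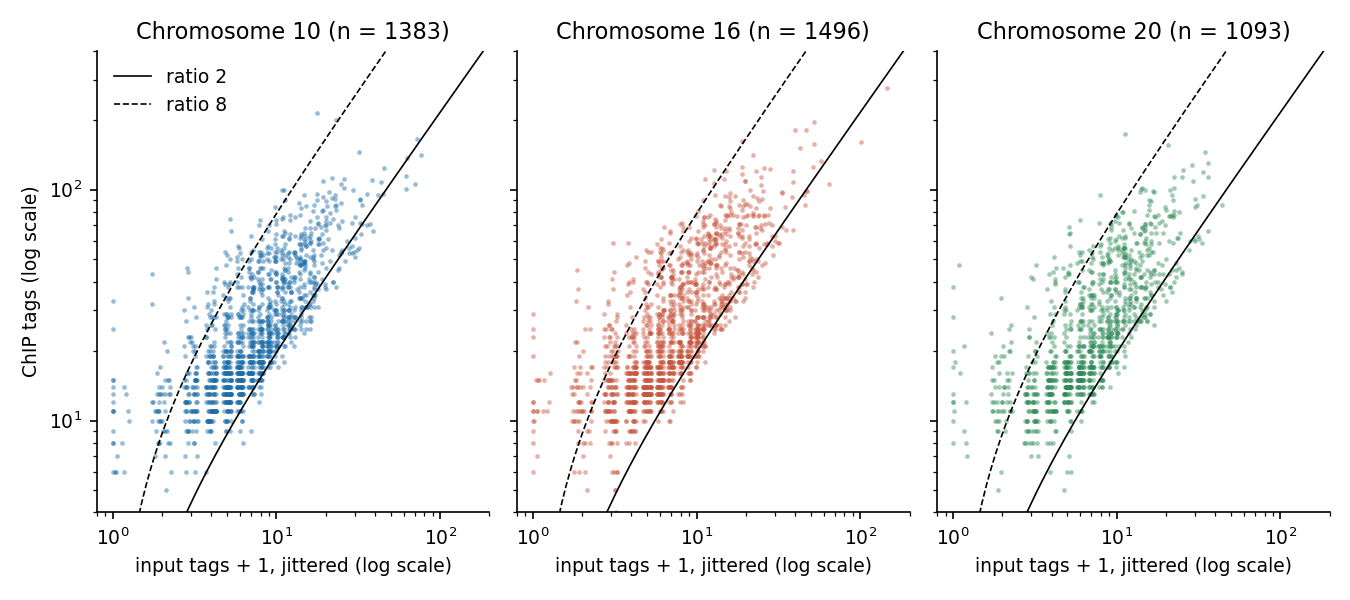
ChIP tags (vertical axis, log scale) against input tags plus 1, jittered (horizontal axis, log scale), with 1 point for each listed peak on chromosomes 10, 16 and 20. Most points lie between the lines of ratio 2 (solid) and ratio 8 (dashed), and the clouds of the 3 chromosomes cover the same range, with few points above 100 ChIP tags.

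For the ratio of ChIP to input, the tags of a peak were divided and scaled by the 1.09 ratio of the library totals. This ratio was lower on these chromosomes than on the 16 others pooled. Its median was 3.35 on chromosome 10 (order-statistic interval 3.28 to 3.47), the lowest of the 20 autosomes, 3.66 on chromosome 16 (3.495 to 3.75) and 3.66 on chromosome 20 (3.43 to 3.66). All 3 intervals lay below that of the 16 others, 3.85 (3.79 to 3.88), whose single medians ran from 3.504 on chromosome 15 to 4.20 on chromosome 4. Only chromosome 10 lay under each of those 16 medians. Of the 16, 10 were above chromosomes 16 and 20. Chromosomes 1, 3, 9 and 13 had the same 3.66, and chromosomes 14 (3.59) and 15 were lower. Ratios of small counts take few values, so medians coincide. For chromosome 16 the intervals touched with tags moved 75 bases towards the fragment centre (3.80 against 3.96). Ratios of at least 4 were found at 36.5%, 42.8% and 41.4% of peaks on chromosomes 10, 16 and 20, against 47.0% (46.3 to 47.7) on the others, and ratios of at least 8 at 7.38%, 10.4% and 10.2% against 11.8%.

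On recount, each peak was tested for ChIP against input with an exact binomial test, adjusted by Benjamini-Hochberg over all 24248 peaks, and counted as enriched where the ratio reached 2 and the adjusted p stayed under 0.05. Since the authors chose the peaks from the same ChIP tags, the counts describe the list. Of the whole list 77.4% were called. The shares were 72.7% on chromosome 10 (1006 of 1383, interval 70.3 to 75.1), 75.5% on chromosome 16 (1130 of 1496, 73.3 to 77.7) and 76.9% on chromosome 20 (840 of 1093, 74.2 to 79.3), against 77.7% (77.1 to 78.3) on the 16 others. Chromosome 10 was thus the only one of the 3 with an interval below that of the others, and among peaks with at least 20 ChIP tags its interval overlapped theirs (89.0% against 91.2%). The remaining shares were near the background. A deposited value below 1e-06 was held by 51.4% (48.7 to 54.1), 56.0% (53.5 to 58.6) and 53.8% (50.8 to 56.8) of the peaks of chromosomes 10, 16 and 20, against 59.2% (58.4 to 59.9) of the others. Here chromosomes 10 and 20 were below the others, and chromosome 16 overlapped them.

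In the pooled groups, median ratios were lower where peaks were dense and near chromosome ends. Of the peaks on the 3 chromosomes 57.5% lay in megabases of 20 or more and 24.0% within 5 Mb of an end, against 29.95% and 14.7% on the 16 others. On the 16 others the median ratio fell from 4.32 (4.23 to 4.44) in megabases of 1 to 5 peaks to 3.96 (3.96 to 4.02) at 6 to 19 and 3.35 (3.35 to 3.43) at 20 or more. On the 3 chromosomes together it fell from 3.96 (3.47 to 4.40, 163 peaks) to 3.66 (3.47 to 3.66, 1526 peaks) and 3.43 (3.35 to 3.54, 2283 peaks). In dense megabases the intervals of both sets overlapped. In the middle class chromosomes 10 and 16 were below the others, with 3.35 (3.20 to 3.595) and 3.66 (3.504 to 3.92), whereas chromosome 20 overlapped them with 3.76 (3.47 to 4.05). In the sparse class the 3 chromosomes held only 53, 40 and 70 peaks, and the intervals of chromosomes 10 and 16 were wide enough to contain the value of the others. From the sparse to the dense class, chromosome 10 had 4.18 (3.32 to 5.48), 3.35 (3.20 to 3.595) and 3.35 (3.20 to 3.43). Chromosome 16 had 4.57 (3.43 to 5.18), 3.66 (3.504 to 3.92) and 3.58 (3.39 to 3.66). On both, the intervals of the classes overlapped, as they did for the 3 chromosomes together. Chromosome 20 did not follow the fall seen in the pooled values: its medians were 3.51 (3.20 to 4.27), 3.76 (3.47 to 4.05) and 3.51 (3.30 to 3.66) from the sparse to the dense class. Its value in the sparse class lay below the 4.32 of the others, with intervals that overlap.

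Position gave a similar picture. Within 5 Mb of an end the median ratio was 3.20 (3.05 to 3.26) on the 3 chromosomes and 3.11 (3.05 to 3.20) on the 16 others, intervals that overlap. Further in, it was 3.66 (3.58 to 3.66) and 3.96 (3.96 to 4.02). The lowest value was that of the ends of chromosome 10, 2.89 (2.74 to 3.05), where 64.5% of 248 peaks were called enriched, against 74.5% of the 1135 in its interior. The 16 others had a like difference, 67.4% near ends and 79.5% inside. Near ends, chromosome 16 had a median of 3.11 (2.90 to 3.395) and chromosome 20 had 3.30 (3.20 to 3.56), the latter apart from chromosome 10. The left ends of chromosomes 16 and 20 had 3.59 (2.97 to 4.34) and 3.48 (3.20 to 3.71). Both overlap the interiors of these chromosomes (3.66 to 3.88 and 3.66 to 3.96). Their right ends had 2.97 (2.74 to 3.35) and 3.18 (2.95 to 3.504), below those interiors. Without the outer 5 Mb, chromosome 20 had a median of 3.68 (3.66 to 3.96), which touches the interval of the others.

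**Figure D4:**
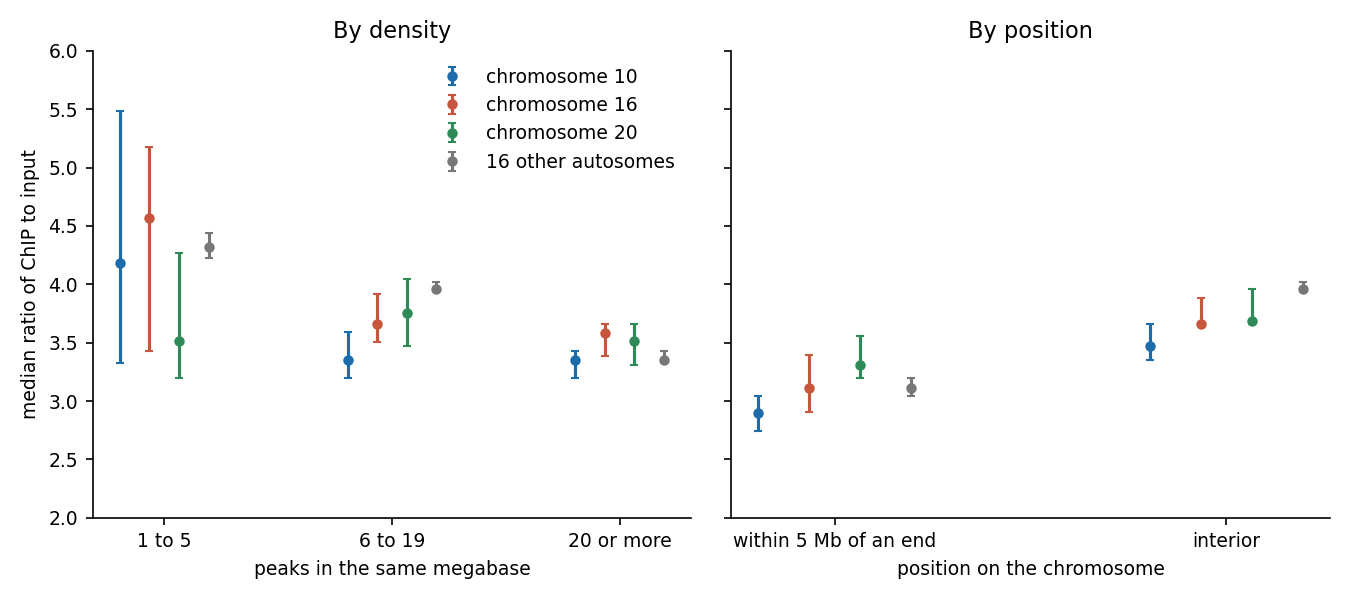
Median ratio of ChIP to input of peaks (vertical axis, with 95% order-statistic intervals) by the number of peaks in the same megabase (left) and by position (right), for chromosomes 10, 16, 20 and the 16 other autosomes. The intervals of the groups overlap at 20 or more peaks. Near the ends chromosome 10 lies lowest and chromosome 20 highest, with intervals apart from each other. The grey points lie above those of chromosomes 10 and 16 at 6 to 19 peaks.

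Distance to the nearest peak divided the ratios further. Among peaks on the 3 chromosomes with a neighbour 1 to 5 kb away the median was 3.24 (3.11 to 3.35, 843 peaks), the lowest class. Those with a neighbour under 1 kb away had 3.96 (3.75 to 4.11, 611 peaks) and 82.7% of them were called enriched. The same class on the 16 others had 4.11 (3.96 to 4.27) and 82.8%, and their class of 1 to 5 kb had 3.43 (3.35 to 3.56), which meets the interval of the 3 chromosomes. Peaks more than 50 kb from any other had 3.66 (3.43 to 3.96, 578 peaks), below the 4.14 (4.11 to 4.27, 5264 peaks) of the 16 others, where such isolated peaks made up 29.3% of the list against 14.6% here.

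The middle of the width distribution was alike. The median was 1000 bases on each of the 3 and on the 16 others, and the quartiles were 800 and 1600 bases in all. Peaks of at least 2600 bases made up 7.09% on chromosome 16 (5.84 to 8.51), 5.13% on chromosome 10 (4.03 to 6.43) and 4.30% on chromosome 20 (3.18 to 5.68), against 6.26% on the others (5.91 to 6.63), so that of chromosome 20 was below. The widest of the 3972 peaks spanned 6.4 kb. On the 16 others 50 peaks were wider than this, and the widest spanned 25.2 kb, or 13.8 kb without high-input peaks, but chromosomes 2 and 18 had none wider than 6.4 kb either. On the 3 chromosomes together the median ratio was lower in all 5 width classes, with intervals apart in the middle and the next. It was 3.26 (3.20 to 3.43) against 3.66 at 1000 to 1400 bases, 3.76 (3.59 to 3.90) against 4.22 (4.11 to 4.31) at 1600 to 2400, and 3.43 (3.35 to 3.66) against 3.66 (3.66 to 3.84) at 600 to 800, where the intervals meet. At 2600 bases or more it was 3.58 (3.395 to 3.87) against 3.93 (3.80 to 4.09), and at 200 to 400 bases 3.66 against 3.96, with overlapping intervals in both. Not every single chromosome was lower. Chromosome 20 had 4.11 (3.66 to 4.57) at 200 to 400 bases, and chromosome 16 equalled the others at 600 to 800. At 1600 to 2400 bases chromosome 20 had 4.00 (3.75 to 4.30), which overlaps the others. At 1000 to 1400 chromosome 16 had 3.395 (3.20 to 3.66), which meets them.

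Peaks with very high input were rare on these chromosomes. Input above 10 times the genome mean was found at 5, 6 and 1 peaks of chromosomes 10, 16 and 20, or 0.302% together (0.156 to 0.527), against 157 or 0.873% (0.743 to 1.02) on the 16 others. In peaks of the 3 chromosomes these few accounted for 0.984% of ChIP and 1.96% of input tags, but 14.9% and 33.3% on the others. This reversed the sign of the comparison when tags were pooled. Over all tags in peaks the ratio was 3.57 (3.52 to 3.61) on the 3 chromosomes and 3.03 (3.01 to 3.04) on the others. Without the high-input peaks it was 3.605 (3.56 to 3.65) against 3.87 (3.84 to 3.89), the same direction as the medians. The share of ChIP tags with the file codes U1 or U2 differed in the same way: 21.9% in peaks here and 27.8% on the others, but 21.7% and 21.9% without the high-input peaks.

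On chromosome 10, 1 of the 2 peaks that tied for the greatest width also had the most ChIP tags and the highest ratio among those with at least 100. At 85400401 to 85405800 (5.4 kb) it held 214 ChIP and 17 input tags, a ratio of 11.5 (7.02 to 20.1). Its 200-base steps held 2 to 23 ChIP tags and the adjoining 1 kb only 3 and 6, so its tags were spread over its width and ended at its edges. In the same megabase, 85325201 to 85329000 held 145 and 31 tags, with a ratio of 4.28 (2.89 to 6.52). The next ratios, at 14567801 to 14570000 and at 26425801 to 26428000, rested on 100 ChIP and 10 input tags each and were both 9.14 (4.77 to 19.6), and all 3 intervals overlapped. The other wide peaks were low. The peak of equal width at 90059801 to 90065200 had 108 and 43 tags and a ratio of 2.30 (1.60 to 3.35). The peak at 68531401 to 68536600 (5.2 kb), with 101 and 61 tags and a ratio of 1.51 (1.09 to 2.12), was not called. The peak richest in input, 94743801 to 94745800, counted 142 ChIP against 75 input tags (ratio 1.73, 1.30 to 2.32) and was not called. The second, 498201 to 499600, counted 166 against 71 (ratio 2.14, 1.61 to 2.86), and U1 or U2 made up 43.98% of its ChIP tags.

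On chromosome 16 the widest peak of all 3 chromosomes, at 48585401 to 48591800 (6.4 kb), had 133 ChIP and 57 input tags and a ratio of 2.13 (1.55 to 2.96). The next, at 50170401 to 50176400 (6.0 kb) and 76486601 to 76492200 (5.6 kb), had ratios of 2.83 (2.05 to 3.96) and 2.29 (1.63 to 3.24), so all 3 were called but lay under the median of the chromosome. The highest ratios came from narrower peaks. At 6971001 to 6973200, inside the run of 11, 111 ChIP and 10 input tags gave 10.1 (5.32 to 21.7). At 72096001 to 72099800, 122 and 12 tags gave 9.29 (5.13 to 18.5), and at 7920401 to 7923600, in the densest megabase, 162 and 18 gave 8.23 (5.04 to 14.2). The most ChIP tags outside high-input peaks were 197 at 76970001 to 76974400 with a ratio of 3.53 (2.58 to 4.90), 182 at 50201601 to 50206600 with 4.27 (3.005 to 6.19), and 181 at 42567601 to 42572800 with 3.597 (2.59 to 5.09). Both peaks with most input lay in the same megabase. At 53360401 to 53364600, 275 ChIP and 144 input tags gave 1.75 (1.42 to 2.15), and at 53378801 to 53380600, 161 and 100 gave 1.47 (1.14 to 1.91). Neither was called.

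On chromosome 20 the steepest peak had another shape from those of chromosomes 10 and 16. At 29767401 to 29767800 it spanned only 0.4 kb, yet held 174 ChIP tags against 10 input tags, 435 ChIP tags per kb, with 67 and 107 in its 2 steps and 5 and 1 in the adjoining 1 kb. Its input was 7.81 times the genome mean, U1 or U2 made up 34.5% of the ChIP tags and 90.8% had distinct positions. With distinct U0 tags alone its ratio was 12.9 (6.78 to 27.7), against 15.9 (8.44 to 33.8) with all tags. The next were ordinary in shape. The peak at 28043401 to 28048000 (4.6 kb), in a megabase of 51 peaks, had 156 and 20 tags and a ratio of 7.13 (4.46 to 12.0). The peak at 73765201 to 73768400 (3.2 kb), 593.8 kb from the peak on its right and 23 kb from that on its left, had 13 input tags and a ratio of 7.17 (4.01 to 13.9). The widest, at 1949201 to 1954200 (5.0 kb), belonged to the run of 9 and had a ratio of 3.42 (2.34 to 5.12). The third widest, at 4779601 to 4784000, had 3.56 (2.33 to 5.60). At 5239201 to 5241400, 145 ChIP and 34 input tags gave 3.90 (2.67 to 5.84). Most input was found at 5822001 to 5823800 and at 600801 to 602000, with 43 and 35 input tags and ratios of 1.83 (1.25 to 2.70) and 1.72 (1.13 to 2.68), and neither was called.

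Averaged over peaks without high input, the profile around the peak centre was of like height on the 3 chromosomes. Over the 100 bases on either side of the centre the mean was 2.69 ChIP tags per 100 bases on each, against 2.84 on the 16 others. The width at 50% of the height above the surroundings was 800 bases on chromosome 10 and 1000 on chromosomes 16, 20 and the 16 others, read from bins of 100 bases. This difference rests on the bins 450 bases left and right of the centre. There chromosome 10 had 1.64 and 1.68 ChIP tags, and the 16 others had 1.78 and 1.76, so no narrower profile is read from it. The mean positions of plus-strand and minus-strand tags lay 167, 103 and 154 bases apart on chromosomes 10, 16 and 20, and 146 on the others. At 2.5 kb and beyond it stood at 0.682, 0.707 and 0.687 on chromosomes 10, 16 and 20 and at 0.599 on the others. The centre thus exceeded its surroundings by factors of 3.94, 3.80 and 3.91, against 4.75, with a higher surrounding level and a slightly lower centre. Input also rose at the centre, by factors of 1.28, 1.24 and 1.26 against 1.39 on the others. Its surrounding level was 0.511, 0.486 and 0.488 tags per 100 bases, against 0.438.

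**Figure D5:**
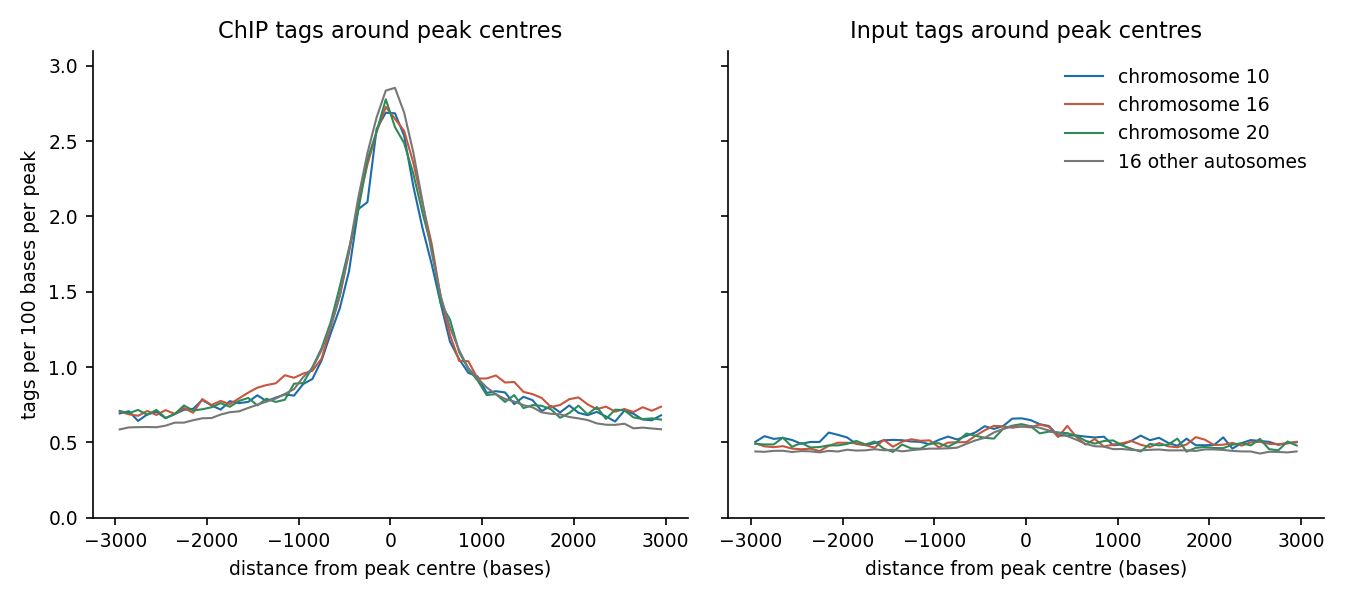
Mean ChIP tags (left) and input tags (right) per 100 bases per peak (vertical axis) against distance from the peak centre in bases (horizontal axis), for peaks without high input. The coloured curves of chromosomes 10, 16 and 20 average 2.69 ChIP tags over the central 200 bases, under the grey curve of the 16 other autosomes, and lie above it at the edges.

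Peaks took a larger share of ChIP tags on these chromosomes than on the 16 others pooled, and the ratio outside peaks was also higher. With high-input peaks included, 5 and 4 single chromosomes of those 16 exceeded chromosomes 10 and 20. On these 5, chromosomes 1, 8, 9, 14 and 15, high-input peaks held 1.38%, 45.6%, 44.6%, 10.0% and 20.5% of the ChIP tags in peaks. All listed peaks held 12.6% of the ChIP tags of chromosome 16 (12.5 to 12.7), 9.41% of chromosome 20 (9.31 to 9.50) and 8.94% of chromosome 10 (8.86 to 9.03), against 8.04% (8.02 to 8.06) on the 16 others and 6.84% there without high-input peaks. For input the shares were 3.90%, 2.67% and 2.71%, against 2.60%. Outside peaks the ratio of ChIP to input was 1.02 on chromosome 16 (1.01 to 1.02), 0.983 on chromosome 20 (0.978 to 0.988) and 0.971 on chromosome 10 (0.967 to 0.975). None of the 16 others, which ran from 0.886 to 0.9497, reached these values. At least 10 kb from any peak the 3 values were 0.983, 0.958 and 0.952 against 0.908, so the order held away from the flanks of peaks. Divided by the ratio outside peaks on its own chromosome, the median peak stood at 3.45 on chromosome 10, 3.597 on chromosome 16 and 3.72 on chromosome 20, each under all of the 16 others (3.73 to 4.59). For chromosome 20 the margin was slight, 3.720 against 3.726 on chromosome 15, and that order was not tested.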

How the data were processed

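Tags of the ChIP and input libraries were analysed, and the RNA pool of 5 males was left aside. Each tag is a line of the authors' files, whose deposited score is 0 throughout and was not used, so lines were counted. ChIP lines span 36 bases with codes U0, U1 or U2 and 0.343% repeated positions; input lines span 38 bases, although the labels give 36, with U0 alone and no repeats, so the files were filtered unlike each other. The deposited peak list gives 1 p-value or q-value per peak, with no word on adjustment. The submitters' processing notes name TopHat and SICER without a role. The aligner is not stated, and no genome build was given in the sources used here. Positions follow the files, counted from 1. Sequences and genes were not analysed here. Tags were placed at their 5' ends and chromosome spans run to the last tag. A peak without an input tag (23, 24 and 18 on chromosomes 10, 16 and 20) was given 3, so its ratio is a lower bound. The recount, checked on simulated tags, used a two-sided exact binomial test with Benjamini-Hochberg adjustment across all peaks, and compares 2 libraries. Shares, rates and ratios have exact 95% intervals of counting error, PCR tags not being independent molecules; median intervals treat peaks as independent. Peaks named by position follow a rule: for each chromosome the 3 widest, the 3 highest ratios among peaks of 100 ChIP tags or more, the 3 with most ChIP tags without high input, the 2 with most input, the 2 densest megabases, the 2 longest covered stretches without a peak and the longest run. Members, lists and tests were chosen with earlier results of these data known. Alternatives are given in the closing section. Counting and intervals used scipy 1.17.1 and numpy 2.4.6 under Python 3.11.15, with tables in pandas 2.3.3 and plots in matplotlib 3.10.9.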

Additional observations from a re-analysis of the deposited data

How the results depend on the processing

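Of 96 recomputed values for 23 results, 83 did not reverse direction and kept their relation to the interval of the 16 other autosomes. The cause of the other 13 was not tested unless stated. Among the 83 are the median widths of chromosomes 10 and 20, which equalled the others at 1000 bases. At a deposited value below 1e-06 they were 1400 against 1200, with overlapping intervals. The density of chromosome 10 over chromosome 20 was 1.00 per Mb of windows with an input tag and 1.04 without the longest gap of each, alternatives chosen after the data were examined, and its interval then included 1; both leave out the empty stretch of chromosome 20. The median ratio overlapped that of the others on chromosome 16 with tags moved 75 bases (3.80) and on chromosome 20 without 5 Mb at each end (3.68, chosen after the data were examined). For the share called enriched, only peaks with at least 20 ChIP tags gave 89.0% on chromosome 10, no longer apart, and 91.5% on chromosome 20, above the 91.2% of the others with overlapping intervals. Scaling by tags outside peaks of the same chromosome put chromosomes 16 and 20 below the others (74.5% and 79.6%), as did a ratio of at least 4 (41.0% and 39.7%) and, for chromosome 20, thinning both libraries to 50% (38.6%, chosen after the data were examined). Thinning gave 36.3% on chromosome 10, so depth limits the number called. Neighbours within 5 kb on chromosome 10 rose above the others after merging peaks under 1 kb apart (12.5%), and on chromosome 20 overlapped them at a deposited value below 1e-06 (14.7%). Density over the 16 others kept its direction in all alternatives run, from 1.34 to 2.53; the lowest, chromosome 20 without 5 Mb at each end, was 1.53 without the longest gaps as well, also chosen after the data were examined. No paired analysis was possible because there is 1 library of each kind.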

Other observations

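Peaks were spread more evenly along chromosomes 10 and 16 than along most others. The 10% of megabases with most peaks held 24.0% of the peaks of chromosome 10 and 26.2% of those of chromosome 16, less than on any of the 16 other autosomes, which ran from 27.0% on chromosome 18 to 38.5% on chromosome 15. On chromosome 20 the share was 34.9%, beside the median of 34.5% of those 16. These shares rise by themselves where a chromosome has few peaks, and no test was made.

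Outside peaks, ChIP tags with the codes U1 or U2 made up 19.6%, 19.3% and 19.7% on chromosomes 10, 16 and 20, against 18.6% over the 16 other autosomes, whose single values ran from 17.6% to 19.7%. Plus-strand tags made up 50.0%, 50.0% and 49.8% of the ChIP tags in peaks on the 3 chromosomes, and each exact interval included 50%.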
